A study of Teleogryllus oceanicus with 18 samples.

Results

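MSTRG.9480 is a gene of the Pacific field cricket *Teleogryllus oceanicus* whose product matched Toll-like receptor 13 of other species. It is 1 gene of 32729 in the count tables and 1 of 23748 that were tested. It was chosen by its levels in these same libraries, since its response to infestation differed between the cricket populations, so the comparisons of infested with control crickets and of Kauai with Mangaia are given for it as a description, without a test.

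RNA was sequenced from the bodies of lab-reared, sexually mature adult males of 2 colonies, founded from the Hawaiian island of Kauai and from Mangaia in the Cook Islands. In the day 4 and day 7 groups of each population, every cricket had received 2 planidia, the first larval stage of the parasitoid fly *Ormia ochracea*, and was collected 4 or 7 days later. Controls were handled in the same way but received no larva. The study excluded crickets whose larvae emerged before collection at day 7, so the day 7 groups are a selected part. It does not state on which day controls were collected, only that they were weighed again at day 7. Crickets also varied in days since becoming adult. There were 3 libraries in each of the 6 groups, and each library pooled RNA of 2 crickets: 1 flatwing and 1 normal-wing male in Kauai pools, against 2 normal-wing males in Mangaia pools. Population and the wing morphs in the pools therefore cannot be told apart. Each population was 1 lab colony, and the flies came from California. Head, gut, wings, legs and pronotum had been removed in all groups, and larvae were dissected out before extraction. The labelled abdominal tissue could not be checked against markers, because gene names were at hand for only 53 genes.

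Toll receptors are membrane proteins whose leucine-rich repeats face away from the cytoplasm and whose inner TIR domain passes the signal on. In *Drosophila*, Toll itself is activated by the cytokine Spätzle after microbes are sensed, and signals to NF-kappaB factors that turn on antimicrobial peptide genes. The receptor named TLR13 is known from the mouse, where it sits in endosomes and recognizes bacterial ribosomal RNA. Whether the cricket gene shares that role is not known from these data, and a best match by sequence does not make the genes orthologs.

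MSTRG.9480 had few reads, with 307 read pairs over the 18 libraries and a mean of 2.36 CPM (counts relative to library size, scaled by TMM), which placed it at the 34.3 percentile of the genes tested by CPM, which is not corrected for gene length. In Kauai, 10, 7 and 9 read pairs were counted in controls, 30, 31 and 21 at day 4, and 29, 38 and 43 at day 7. In Mangaia, 14, 14 and 10 were counted in controls, 5, 11 and 7 at day 4, and 9, 9 and 10 at day 7. All 6 infested Kauai libraries thus held more reads than any of the other 12 libraries.

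Scaled to library size, the Kauai levels were 1.66, 1.12 and 1.36 CPM in controls, 4.40, 4.34 and 2.87 CPM at day 4, and 4.03, 5.04 and 5.68 CPM at day 7. The Mangaia levels were 1.84, 1.91 and 1.53 CPM in controls, 0.611, 1.52 and 0.943 CPM at day 4, and 1.25, 1.11 and 1.37 CPM at day 7. Every infested Kauai library lay above every Kauai control, and every infested Mangaia library lay below every Mangaia control. The second of these gaps was narrow at day 4: the highest Mangaia day 4 library and the lowest Mangaia control differed only in the third digit, at 1.519 and 1.526 CPM. With RLE scaling, added after the data were seen, they overlapped, at 1.545 and 1.528 CPM. In bulk samples like these, fewer cells that express a gene and less RNA per cell cannot be told apart.

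**Figure D1:**
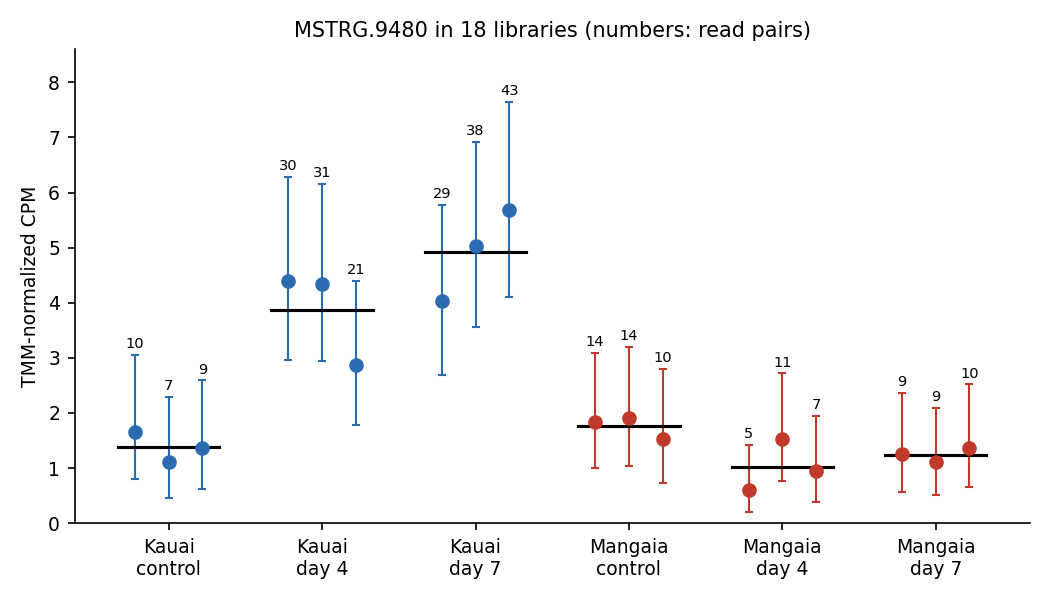
Level of MSTRG.9480 in TMM-normalized CPM (vertical axis) in each of the 18 libraries, by group (horizontal axis), with Kauai in blue and Mangaia in red. Bars are exact 95% Poisson intervals of the counts, numbers are read pairs, and black lines are group means. The Kauai day 4 and day 7 libraries sit between 2.87 and 5.68 CPM, and the other 12 between 0.611 and 1.91 CPM.

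The order of the group means, from high to low, was Kauai day 7 with 4.91 ± 0.832 CPM, Kauai day 4 with 3.87 ± 0.864 CPM, Mangaia control with 1.76 ± 0.204 CPM, Kauai control with 1.38 ± 0.273 CPM, Mangaia day 7 with 1.24 ± 0.134 CPM and Mangaia day 4 with 1.02 ± 0.459 CPM (SD, n = 3 each). Both infested Kauai groups overlapped each other, and a gap followed between Kauai day 4 and Mangaia control. Among the 4 lower groups, neighbours in the order overlapped. Summed over the libraries of a group, the reads numbered 110 for Kauai day 7 (exact 95% Poisson interval 90.4 to 132.6) and 82 for Kauai day 4 (65.2 to 101.8), against 26 for Kauai control (17.0 to 38.1). In Mangaia they numbered 28 at day 7 (18.6 to 40.5) and 23 at day 4 (14.6 to 34.5), against 38 in controls (26.9 to 52.2). The intervals of the Kauai infested and control groups were apart, whereas those of the 3 Mangaia groups overlapped one another. These intervals cover counting error only.

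The libraries of a group differed in their counts of MSTRG.9480 about as much as counting alone gives. The chi-square statistic of the counts within groups, given library size, was 9.25 on 12 degrees of freedom. The fitted biological coefficient of variation was 0.142, against a median of 0.285 over all genes tested. These values come from the libraries by which the gene was chosen, so they are a description. With 5 to 43 read pairs per library, counting noise is large and could hide a spread between pools. Each library is a pool, and nothing in the labels says more of how the pools were made, so all error terms describe the spread between these pools.

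At day 4, MSTRG.9480 was higher in infested than in control crickets of Kauai, by a log2 fold change of 1.48 (SE 0.319). Over all genes tested, 13.3% had every Kauai day 4 library above every Kauai control. In Mangaia the day 4 log2 fold change was -0.78 (SE 0.340), and 12.4% of genes had every day 4 library below every control. The response of Kauai minus that of Mangaia was 2.26 on the log2 scale (SE 0.466).

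At day 7, the log2 fold change in Kauai was 1.82 (SE 0.316). Here 30.7% of all genes had every Kauai day 7 library above every Kauai control. In Mangaia it was -0.50 (SE 0.332), and 27.4% of genes had every day 7 library below every control. Kauai minus Mangaia gave 2.32 (SE 0.459). Since both days were compared with the same 3 controls per population, the values of the days are not independent of each other.

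Set side by side within a stage, the log2 ratio of Kauai over Mangaia was -0.35 in controls (SE 0.335), and the libraries overlapped. At day 4 the ratio was 1.91 (SE 0.324), and no Kauai library was as low as any Mangaia library, an arrangement found in 8.69% of genes. At day 7 it was 1.97 (SE 0.313), again without overlap, as in 15% of genes. Kauai libraries thus lay apart from Mangaia libraries at both infested stages. In controls they overlapped only in that Kauai replicate 1 (1.66 CPM) lay above Mangaia replicate 3 (1.53 CPM).

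A positive fitted change in Kauai together with a negative one in Mangaia was common among all genes, at 20.8% on day 4, 14.5% on day 7 and 6.76% on both days. Kauai libraries of both days lay above all Kauai controls in 2606 genes, or 10.97%. Of these, 9 (0.0379% of all genes tested) also had all Mangaia libraries of both days below all Mangaia controls. MSTRG.9480 was among these 9, and none of the other 8 had a name. The gene was chosen by these same values, so its place among the 9 is a description. That place rests on the narrow gap at Mangaia day 4, where the libraries overlapped with RLE scaling.

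Whether the level moved on between the infested stages was not itself a comparison that chose the gene. The step is, however, the difference of the day 7 and day 4 responses, which did enter the choice. It was tested with edgeR's quasi-likelihood test, but the p-values are therefore not independent of the choice. In Kauai, day 7 over day 4 gave a log2 fold change of 0.34 (SE 0.285, 95% interval -0.26 to 0.95, Benjamini-Hochberg adjusted p = 0.382), and the groups overlapped. In Mangaia it was 0.28 (SE 0.350, 95% interval -0.46 to 1.03, adjusted p = 0.610 by edgeR), also with overlap. Neither passed the threshold of 0.05, in comparisons that called 24.7% of all genes in Kauai and 26.6% in Mangaia. The step in Kauai minus that in Mangaia was 0.06 (SE 0.480, 95% interval -0.96 to 1.08, adjusted p = 0.971 by edgeR), where 1.27% of genes were called. The intervals leave room for changes of up to about 1 on the log2 scale in either population. With 3 pools per group and this few reads, a further move within these intervals cannot be told from none. Without Mangaia day 4 replicate 1, the library with 5 reads, the Mangaia step turned to -0.10.

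**Figure D2:**
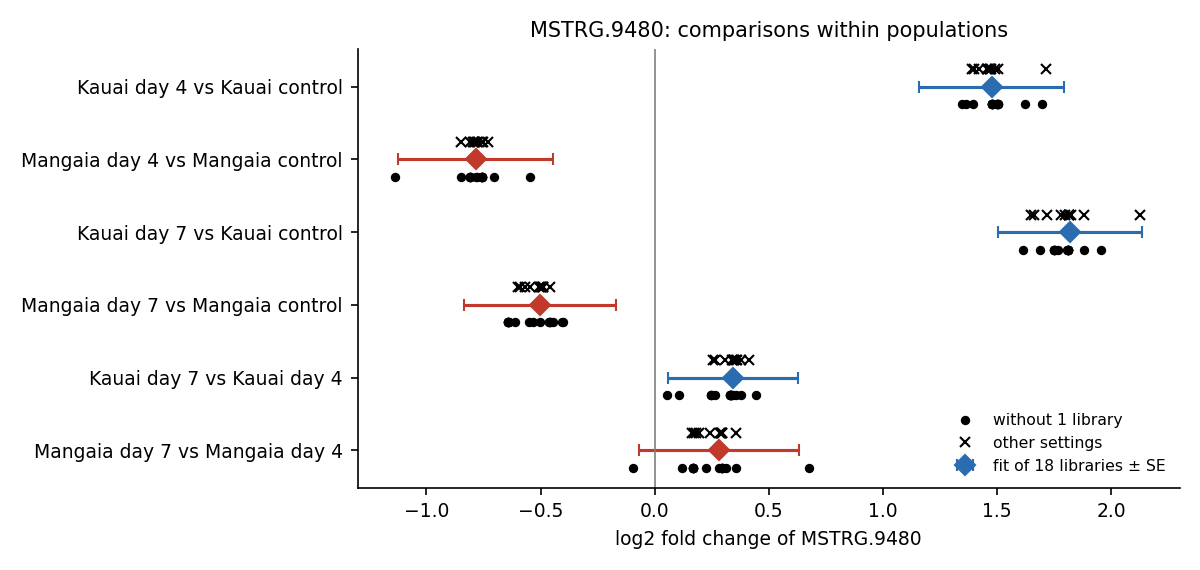
Fitted log2 fold change of MSTRG.9480 (horizontal axis) for each comparison within a population (vertical axis). Diamonds with bars are the fit of all 18 libraries ± SE, dots are fits without 1 library and crosses are other settings. Over the fits without 1 library, values for infested over control crickets stay between 1.35 and 1.96 in Kauai and between -1.14 and -0.40 in Mangaia, and the step between days in Mangaia crosses 0.

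Of the 4 responses to infestation, that of Mangaia at day 4 depended most on which library was left out. Without replicate 2, which held 11 reads, the day 4 fold change was -1.14, and without replicate 1 it was -0.55. The Kauai responses ranged only from 1.35 to 1.70 at day 4 and from 1.61 to 1.96 at day 7 over the fits that lacked 1 library each. Without the day 7 libraries least like their own groups, Kauai replicate 1 and Mangaia replicate 2, the day 7 changes were 1.88 in Kauai and -0.57 in Mangaia.

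Reads of MSTRG.9480 came from both strands, as in a library kit that does not mark strand, with 138 pairs on one and 169 on the other. Their sum equalled the unstranded count in 18 of 18 libraries, so no pair had been set aside for lying also in a gene of the opposite strand. Pairs that mapped to several places were counted in no gene, which would undercount a receptor with a near-identical copy. Such pairs made up 10.2% to 14.4% of Kauai day 4 libraries and 6.57% to 8.28% of Kauai day 7 libraries. In Kauai controls they made up 10.9% to 12.0%, so in Kauai their share was lower at day 7 alone. In Mangaia it was 8.68% to 9.60% at day 4 and 8.52% to 11.2% at day 7, against 10.1% to 12.3% in controls. The part of such pairs in the result was not tested.

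Over the whole series, 6266925 to 8023588 read pairs per library lay in genes, or 68.5% to 73.2% of all pairs. TMM factors ran from 0.846 to 1.151. The mean correlation of a library with its own group was 0.902 to 0.964, lowest in Mangaia day 7 replicate 2. No 2 libraries of a group agreed within counting noise.

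The other genes with names of Toll-like receptors or related leucine-rich proteins gave a frame for MSTRG.9480. They were 9 genes: 6 Toll-like receptors and 3 leucine-rich relatives. The study's immune list, which supplied the names, gives a subset of its immune genes beside their changes in these same libraries, and appears to hold genes that changed in them. How often its genes were called, and in which direction, may thus follow from how the list was made, and the counts below are a description that supports nothing about the family against other genes. At day 7, all 9 were called higher in infested than in control crickets of Kauai (edgeR, adjusted p under 0.05), against 25.1% of all genes called higher and 26.2% called lower. In Mangaia 5 of 9 were called higher, against 12.6% of all genes higher and 18.8% lower. That count fell to 1 without Mangaia control replicate 1, to 2 without Mangaia day 7 replicate 3, and to 3 without either other Mangaia control or without Kauai day 7 replicate 2 or 3. The median log2 fold change of the 9 was 2.64 in Kauai and 1.54 in Mangaia, beside 0.07 and -0.01 over all genes. At Kauai day 7, MSTRG.9480 (1.82) lay below the median of these relatives. At Kauai day 4 it lay near their median, at 1.48 against 1.38.

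At day 4, 2 of 9 were called higher in Kauai, where 1.73% of all genes were called higher and 0.337% lower, and 1 of 9 in Mangaia, where 1.89% were called higher and 1.21% lower. The Kauai count fell to 0 without Kauai control replicate 2, and to 1 when Kauai control replicate 1 or 3, Kauai day 4 replicate 2 or 3, Kauai day 7 replicate 3, Mangaia control replicate 1 or Mangaia day 4 replicate 3 was left out. The Mangaia count fell to 0 when Mangaia control replicate 1 or 3 or Mangaia day 4 replicate 2 or 3 was left out. In these 4 comparisons 0 of 9 relatives were called lower by edgeR, 0 had a lower fitted level at an unadjusted p under 0.05, and DESeq2, limma voom and edgeR's likelihood ratio test also called 0 lower.

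The other gene with the name Toll-like receptor 13, TOG006794, responded in both populations. Its reads summed to 4, 9 and 25 in Kauai controls, day 4 and day 7, and to 1, 3 and 13 in the same stages of Mangaia. At day 7 its log2 fold change was 2.31 in Kauai (SE 0.660, adjusted p = 0.00917 by edgeR). In Mangaia the 13 reads at day 7 stood against 1 read in controls, a ratio of 12.3 with an exact 95% counting interval of 1.85 to 524. That call (adjusted p = 0.0143 by edgeR) was lost without Mangaia control replicate 1. Both genes with this name thus had more reads in infested than in control crickets of Kauai, while in Mangaia MSTRG.9480 had fewer and TOG006794 more.

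Tollo, also called Toll-8, is a Toll family receptor known in *Drosophila* from development and from immunity of the airway epithelium. Of the genes with this name, MSTRG.7205 was the most read, with 63, 599 and 1071 reads in Kauai controls, day 4 and day 7, and 91, 457 and 867 in Mangaia. Its day 7 log2 fold changes were 3.86 in Kauai (SE 0.566) and 3.18 in Mangaia (SE 0.545), and both were called. The second, MSTRG.7687, had 77 reads at Kauai day 7 against 1 in Kauai controls, a ratio of 65.2 (exact 95% counting interval 11.4 to 2607), and in Mangaia a log2 fold change of 3.00 (SE 0.916), whose call was lost in 4 of the other settings and library sets. Both Tollo genes were also called at day 4 in Kauai, MSTRG.7687 only just (adjusted p = 0.0466 by edgeR) and no longer in 13 of the other settings and library sets.

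TLR2 and TLR6 are known from mammals as cell-surface receptors of bacterial lipoproteins. MSTRG.22446, one of the genes named TLR2, had day 7 log2 fold changes of 2.38 in Kauai (SE 0.465) and 1.60 in Mangaia (SE 0.475), both called, the second lost in 5 alternatives: without Mangaia control replicate 1 or 2 or Mangaia day 7 replicate 3, with only the libraries compared, and with summed strand counts. The other, MSTRG.22165, had reads that summed to 0, 16 and 24 in Kauai controls, day 4 and day 7, and to 5, 14 and 3 in Mangaia. Against a floor of 3 reads over the control group, it was at least 4.74-fold higher at day 4 and at least 6.77-fold higher at day 7 in Kauai, and with this gene at its bounds the medians of the 9 relatives remained 1.38 at day 4 and 2.64 at day 7. At Mangaia day 7 its log2 fold change was -0.71 (SE 1.26), not called, and at day 4 it was 1.36 (SE 1.01), so its direction in Mangaia did not hold over the stages. MSTRG.5414, named TLR6, had a day 7 log2 fold change of 2.64 in Kauai (SE 0.490), which was called. Its Mangaia day 7 value of 0.56 (SE 0.440) was not. At day 4 its fitted signs were opposite, with 0.67 (SE 0.527) in Kauai and -0.10 (SE 0.451) in Mangaia, neither called.

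The leucine-rich relatives had positive day 7 fold changes in both populations. MSTRG.872, named for a TLR4 interactor that in mammals aids TLR4 signalling, had 23 reads at Kauai day 7 against 1 in controls, a ratio of 19.5 (exact 95% counting interval 3.16 to 802). Its Mangaia value of 1.54 (SE 0.558, adjusted p = 0.0469 by edgeR) was lost in 22 of the other settings and library sets. CD180, known in mammals as a TLR4-like protein of B cells, lends its name to TOG013608, whose log2 fold changes were 1.72 in Kauai (SE 0.550) and 1.07 in Mangaia (SE 0.579). MSTRG.5564, a leucine-rich repeat protein, had 1.06 in Kauai (SE 0.379) and 0.84 in Mangaia (SE 0.371). Of these, the Kauai values of TOG013608 and MSTRG.5564 were called and their Mangaia values were not. The Kauai call of MSTRG.5564 was lost in 8 alternatives, among them DESeq2, limma voom, RLE scaling and the fits without Kauai control replicate 2 or 3 or Kauai day 7 replicate 1. That of TOG013608 was lost in 4, among them the fits without Kauai control replicate 3 or Kauai day 7 replicate 1.

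A difference between the populations in the day 7 response was called by edgeR's quasi-likelihood test for 0 of the 9 relatives, where it was called for 2.43% of all genes. At an unadjusted p under 0.05, 2 of 9 differed, about the share found over all genes (5088 of 23748). The likelihood ratio test called 2, DESeq2 1 and limma voom 0. The relatives with the smallest unadjusted p were MSTRG.5414, with a difference of 2.08 on the log2 scale (SE 0.659, adjusted p = 0.0921), and MSTRG.22165 (adjusted p = 0.105).

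**Figure D3:**
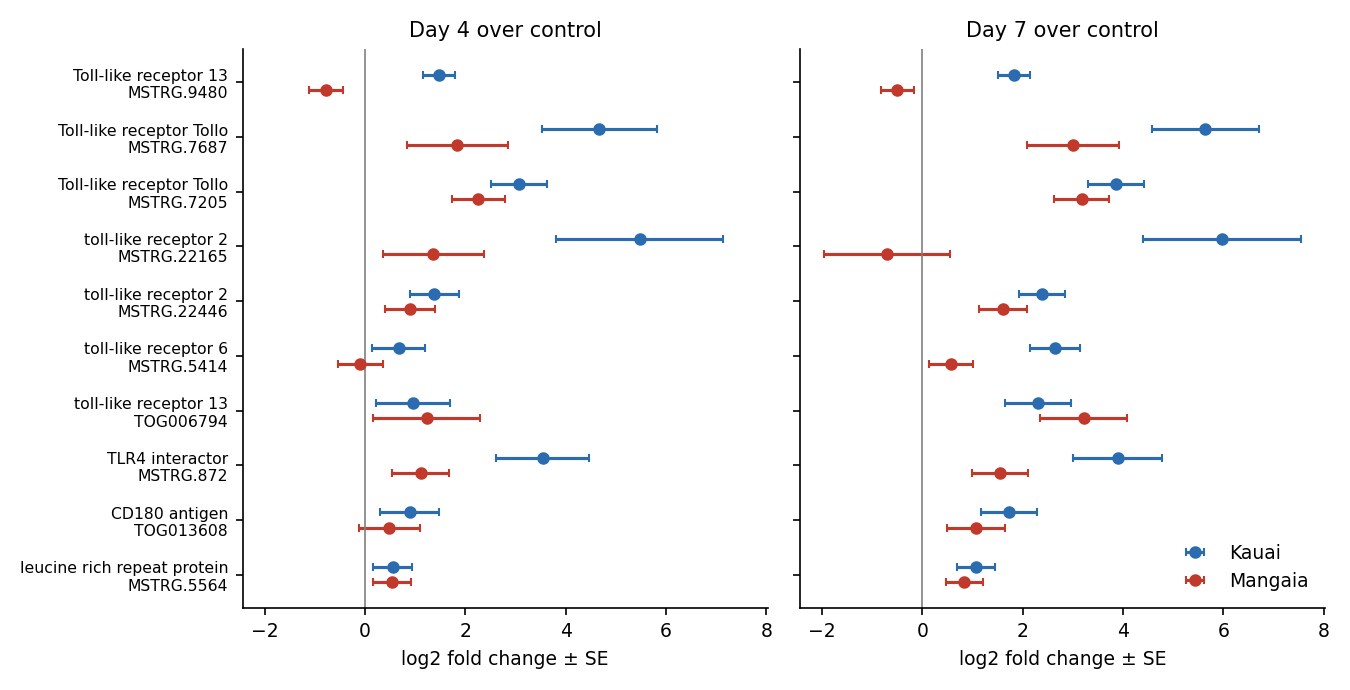
Fitted log2 fold change ± SE of day 4 (left) and day 7 (right) over control (horizontal axis) for MSTRG.9480 and the 9 named relatives (vertical axis), with Kauai in blue above Mangaia in red. In Mangaia, MSTRG.9480 lies below 0 on both days, at -0.78 and -0.50. Bars of genes with 0 or 1 control reads, such as MSTRG.22165, are wide.

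Phenoloxidases, the melanin-forming enzymes that blood cells of many insects make, were taken as markers of those cells. They come from the same immune list, so their changes may follow from how it was made. More blood cells and more of this RNA per cell cannot be told apart by them. Their summed level was higher after infestation in both populations. The summed level of the 7 phenoloxidase genes in Kauai was 140 to 152 CPM in controls, 460 to 589 CPM at day 4 and 860 to 1860 CPM at day 7. In Mangaia it was 151 to 220 CPM in controls, 532 to 1320 CPM at day 4 and 1148 to 1944 CPM at day 7. None of the 7 was at 0 reads in any group. Most of the sum at day 7 was MSTRG.7273 alone, with means of 1211 of 1466 CPM in Kauai and 1263 of 1552 CPM in Mangaia. Their sum was higher in every infested than in any control library of Mangaia, where MSTRG.9480 was lower, and the part of blood cell numbers in the level of MSTRG.9480 was not tested. The strongest changes of the list at Kauai day 7 were a rise of MSTRG.7273 (4.07, SE 0.428) and a fall of MSTRG.11188 (-4.04, SE 1.13). That fall rested on 19 reads over the Kauai controls against 1 over the Kauai day 7 libraries, so its size is poorly fixed. At Mangaia day 7, MSTRG.7273 rose as well (4.18, SE 0.430), while MSTRG.11188 stood at -1.67 (SE 0.962) and was not called.

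Counted with 3 peptidoglycan recognition proteins, which bind bacterial cell wall, and 4 signalling genes, 14 other immune genes were examined at day 7. In Kauai 11 were called higher and 3 lower, with a median log2 fold change of 1.08 against 0.07 over all genes, of which 25.1% were called higher and 26.2% lower. In Mangaia 6 were called higher and 2 lower, with a median of 0.67 against -0.01, where 12.6% of all genes were called higher and 18.8% lower. These genes come from the same list, and all 14 being called in Kauai may follow from how it was made. Without Kauai control replicate 3, the count of higher genes in Kauai fell to 7. Among the recognition proteins, MSTRG.9040 (SC2) fell in Kauai (-1.74, SE 0.425) and in Mangaia (-2.45, SE 0.435), while MSTRG.22070 rose in Kauai (1.45, SE 0.214) and in Mangaia (1.61, SE 0.215). Among the signalling genes, MSTRG.6375, named for a binding protein of the mammalian kinase IRAK1 downstream of Toll-like receptors, fell in Kauai (-3.63, SE 0.503) and in Mangaia (-2.95, SE 0.505). MSTRG.17457, named for eiger, the tumour necrosis factor ligand of *Drosophila*, rose in Kauai (1.37, SE 0.231) and in Mangaia (1.44, SE 0.230). Opposite fitted signs in the populations, as in MSTRG.9480, also occurred in these lists. MSTRG.12613, named for SARM1, a TIR-domain protein that in mammals dampens Toll-like receptor signalling, had 0.28 (SE 0.309) in Kauai and -0.96 (SE 0.311) in Mangaia at day 4, and 1.07 (SE 0.311) in Kauai and -0.06 (SE 0.307) in Mangaia at day 7, of which only the Kauai day 7 value was called. At day 4, MSTRG.18424, named for PGRP-LB, had 0.58 (SE 0.361) in Kauai and -0.64 (SE 0.356) in Mangaia, and MSTRG.18304, named for STING, had 0.60 (SE 0.281) in Kauai and -0.10 (SE 0.279) in Mangaia, and none of these values was called. These 3 genes were named after their values were seen.

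Likeness to MSTRG.9480 was measured as the Pearson correlation of log2 CPM over the 18 libraries, which share the groups, so it is a description. Across the genes tested its median was 0.01, with 14 genes over 0.8 and 1 under -0.8. The genes most alike had no names: MSTRG.12956 (0.85), MSTRG.3743 (0.85) and MSTRG.21363 (0.85), with Spearman coefficients of 0.864, 0.907 and 0.812 in the same order. MSTRG.12956 averaged 26.2 ± 2.89 CPM in Kauai controls, 31.4 ± 1.68 at day 4 and 40.1 ± 2.18 at day 7, and in Mangaia 25.7 ± 2.06 in controls, 17.6 ± 0.616 at day 4 and 25.1 ± 2.75 at day 7 (SD, n = 3 each). Its Mangaia level was thus low at day 4 alone.

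The changes of these genes were smaller than those of MSTRG.9480. At Kauai day 7 their log2 fold changes were 0.61 (SE 0.143) for MSTRG.12956, 0.55 (SE 0.214) for MSTRG.3743 and 0.89 (SE 0.224) for MSTRG.21363. At Mangaia day 7 they were -0.04 (SE 0.143), -0.36 (SE 0.216) and -0.29 (SE 0.224) for the same genes. Among the 53 genes with a name, the most alike by Pearson were TOG006794 (0.66), the phenoloxidase-activating factor MSTRG.6730 (0.65) and MSTRG.22165 (0.60). Their Spearman coefficients were 0.526, 0.505 and 0.584 in the same order. By Spearman the named gene most alike was instead MSTRG.21787 (0.758), named for adhesion G protein-coupled receptor A3. Over all genes tested, TOG006794 ranked only 229 by Pearson and 944 by Spearman, and it had few reads. MSTRG.6730, of a family of proteases and protease homologs that help to activate phenoloxidase in insects, had day 7 log2 fold changes of 1.09 in Kauai (SE 0.255) and 1.04 in Mangaia (SE 0.255).

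**Figure D4:**
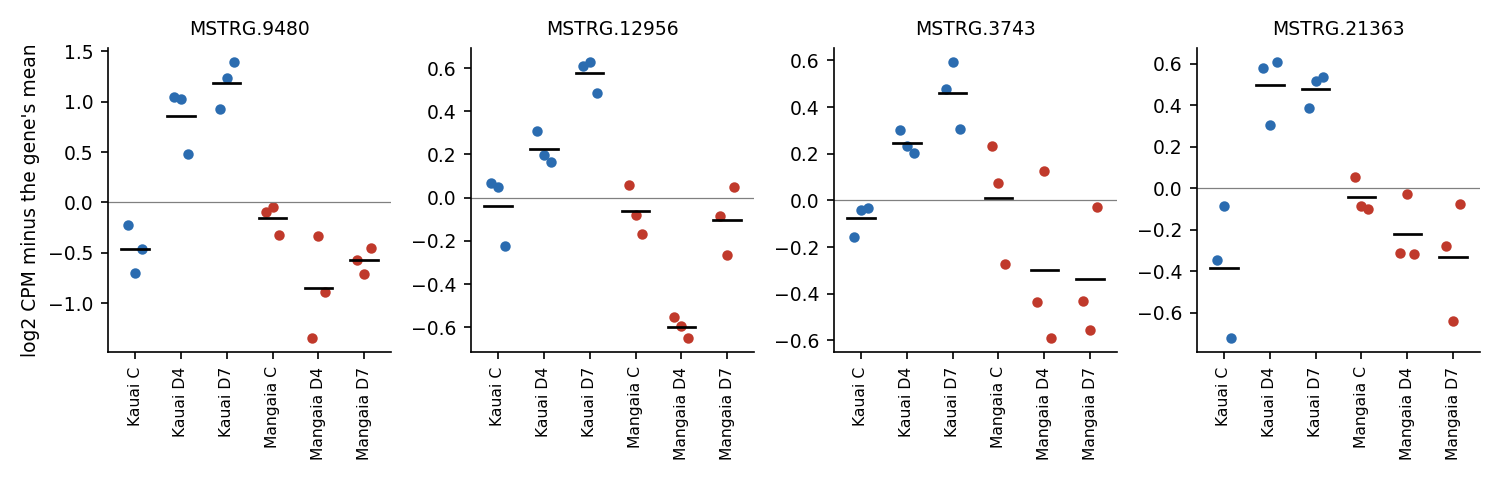
Level in log2 CPM minus each gene's own mean (vertical axis, scaled per panel) of MSTRG.9480 and the 3 genes most correlated with it, in each library by group (horizontal axis; C control, D4 day 4, D7 day 7). Kauai is blue, Mangaia red and lines are group means. In all panels the Kauai infested groups have the highest means, and the vertical range is widest for MSTRG.9480.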

How the data were processed

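RNA of 18 pools was sequenced as paired reads after poly(A) selection with a kit that does not mark strand. Per the study's methods and notes, the authors trimmed reads with Trimmomatic 0.33, aligned them with STAR 2.5.3a in a pair of passes with transcripts merged by StringTie 1.3.4d, and deposited raw counts of uniquely mapped read pairs per gene. Low counts limit the precision: the lowest library held 5 pairs of MSTRG.9480 and the highest 43.

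Genes reaching 1 CPM in 2 or more libraries entered the tests, which used the unstranded counts, R 4.3.3 and edgeR 4.0.16. All 6 groups shared 1 quasi-likelihood fit with TMM scaling, and p-values were Benjamini-Hochberg adjusted over 23748 genes, with calls at 0.05. The SE is the absolute log2 fold change over the square root of F. Correlations used log2 CPM with a prior count of 2. Group counts carry exact Poisson 95% intervals, and ratios exact conditional ones. The tests were run on simulated counts beforehand.

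The gene, the lists and the comparisons were chosen with earlier results of these data known. Genes named by rule are MSTRG.9480, all receptor relatives and at most 2 genes of each other list with the largest change at Kauai day 7. Added to these are the 3 most correlated genes overall and among those with names. MSTRG.12613, MSTRG.18424, MSTRG.18304 and MSTRG.21787 were named beyond this rule, after their values were seen. Names rest on the study's protein matches. Alternatives were DESeq2 1.42.0, voom from limma 3.58.1, edgeR's likelihood ratio test, RLE factors, library size alone, no filter, filterByExpr, the summed strand counts, only the libraries compared, a replicate block and leaving out libraries. For the other immune genes and for the day 7 difference of the relatives, alternatives were added after seeing the data. Replicate numbers do not pair the libraries. Sequences, coordinates and gene lengths were not used here, so CPM is not corrected for gene length where genes are ranked by it or summed.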

Additional observations from a re-analysis of the deposited data

Results flagged for a closer look

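MSTRG.9480 had fitted changes in opposite directions in the populations at day 4, with every Kauai library above and every Mangaia library below its controls. The Mangaia change was -0.78 (SE 0.340). The Kauai response minus the Mangaia response was 2.26 on the log2 scale. The difference was not tested, because the gene was chosen by it. With RLE scaling, the Mangaia day 4 and control libraries overlapped.

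At day 7 the same arrangement gave a difference of 2.32, against the same controls, and the difference was not tested for the same reason.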

How the results depend on the processing

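MSTRG.9480 kept its direction in Kauai and in Mangaia at days 4 and 7 in each setting and library set run. Without 1 library at a time, the Kauai changes ran from 1.35 to 1.70 at day 4 and from 1.61 to 1.96 at day 7, the Mangaia changes from -1.14 to -0.55 and from -0.64 to -0.40, and the differences from 2.05 to 2.62 and from 2.19 to 2.52. Library size alone gave 2.13 for Kauai day 7 and 2.67 for its difference from Mangaia. It also moved the median of all genes at Kauai day 7 to 0.37, against 0.07 with TMM, and relative to those medians MSTRG.9480 stood at 1.75 under both. The steps between day 4 and day 7 stayed above 0.05 in adjusted p throughout (Kauai 0.271 to 0.907, Mangaia 0.287 to 0.899, difference 0.786 to 0.9999). The Mangaia step ran from -0.10 to 0.68 without 1 library, and the difference of the steps from -0.35 to 0.34, turning negative without Mangaia day 4 replicate 2 (-0.35), Mangaia day 7 replicate 2 (-0.02), Kauai day 4 replicate 3 (-0.11) or Kauai day 7 replicate 3 (-0.06).

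Of the 9 relatives, 2 were called higher at Kauai day 4, but 4 with the likelihood ratio test or library size alone, 1 with RLE factors, no filter, a replicate block or only the libraries compared, and 0 with limma voom. At Mangaia day 4, voom called 0 in place of 1. With filterByExpr, which tests fewer genes, the counts were 5 at Kauai day 7 and 3 at Mangaia day 7. Relatives that this filter removed counted as not called, and none that it kept changed its call. A fit of only the libraries compared called 1 at Mangaia day 7. Without 1 library the counts were 0 to 3 at Kauai day 4, 0 to 1 at Mangaia day 4, 7 to 9 at Kauai day 7 and 1 to 5 at Mangaia day 7. Of the other immune genes, 7 to 11 were called higher at Kauai day 7. The day 7 difference of the relatives, at 0 calls, became 2 with the likelihood ratio test and 1 with DESeq2 or library size alone. At Kauai day 7, 8 were called with DESeq2, voom or RLE factors and 7 with only the libraries compared. At Mangaia day 7, 4 were called with DESeq2, voom, RLE factors, library size alone, no filter or the replicate block. Apart from the relatives removed by filterByExpr, the cause of these changes was not tested. Single relatives whose calls were lost include MSTRG.5564 (8 alternatives) and TOG013608 (4) at Kauai day 7, and MSTRG.872 (22), MSTRG.22446 (5), MSTRG.7687 (4) and TOG006794 (1) at Mangaia day 7.

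Replicate numbers did not pair the libraries: over 45 pairs of same-numbered libraries, deviations from group means correlated at -0.51 to 0.26, with 10 over 0.1. With the replicate block, MSTRG.9480 had a log2 fold change of 0.35 for the Kauai step (adjusted p = 0.424 by edgeR), and its calls did not change.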
